A study of Mus musculus with 3 samples.

Results

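The 8 genes described here encode RNA-binding proteins that control when messenger RNAs are translated: the 4 CPEB genes Cpeb1, Cpeb2, Cpeb3 and Cpeb4, the fragile X gene Fmr1 with its relatives Fxr1 and Fxr2, and the Pumilio gene Pum2. They were represented by every gene probe whose accession maps to one of these RefSeq symbols, which gave 9 probes of 41174 gene probes. Of these, 7 were among the 27530 probes that the authors' flag called reliable on at least 2 of 3 arrays and that were tested. The genes were chosen by their function together with earlier log2 ratios of these same arrays, on which Cpeb2 stood near the top of all probes, so the ratios below describe the genes and support nothing by themselves.

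The study compared total RNA from the cortex of mice aged 16 weeks. One group carried the Gtf2i(+/Δex2) genotype, heterozygous for an allele named for exon 2 of Gtf2i, and the other was wild type, WT (+/+); both shared a mixed strain background of 98.4% C57BL/6J and 1.6% 129Sv/CD1. RNA of 3 to 5 mice of a genotype was pooled, and each of 3 two-colour arrays set a mutant pool against a wild-type pool. Cy3 carried the mutant on 2 arrays, replicates 1 and 3, and Cy5 carried it on replicate 2. Whether any pool was used on more than 1 array cannot be read from the labels; p-values then reflect no more than array-to-array spread, possibly of technical origin, and the number of arrays limits the precision.

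CPEB proteins bind the cytoplasmic polyadenylation element, a U-rich sequence near the end of an mRNA, and hold that mRNA silent or let its poly(A) tail be lengthened and translation begin. FMRP, the product of Fmr1, binds mRNAs of neurons and slows their translation, and its loss causes fragile X syndrome; FXR1 and FXR2 are its close relatives. Pumilio proteins bind a short UGUA-containing element and recruit the enzymes that shorten poly(A) tails. In cortical neurons all 3 families act on mRNAs carried to dendrites and synapses. Gtf2i encodes TFII-I, a transcription factor that binds initiator elements and E-boxes, the latter together with USF proteins.

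E-boxes of the form CACGTG were therefore looked for in the RefSeq promoter windows of build GRCm38.p6, which run from 250 bases before to 50 bases after a gene's start. Windows were matched for 7 of the 8 genes, Cpeb1, Cpeb3, Cpeb4, Fmr1, Fxr1, Fxr2 and Pum2. The 2 genes with a match are shown with 12 bases on either side, 5′ to 3′, the E-box in capitals. The Cpeb1 site is at chr7:81454717-81454746 on the minus strand, the E-box starting 25 bases into the transcript. The Fmr1 site is at chrX:68678518-68678547 on the plus strand, the E-box starting at position -11 relative to one annotated start and -52 relative to another.
Cpeb1: aaaaatagtgccCACGTGtgtgcgcgtccc
Fmr1: ggctgcgcgggtCACGTGacatcgtttgac
CACGTG was held by 3 of the 12 windows of these genes (25%), and by 7.15% of all 32851 promoter windows, and it reads the same on both strands. The same Fmr1 site is counted in the windows of both starts named above, so the matches fall in 2 of the 7 genes. The looser E-box CANNTG, which includes CACGTG, occurred in 6 of the members' 12 windows (50%) and in 72.3% of all windows. A match describes the sequence and not a bound site.

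Ratios are log2 of mutant over wild-type signal, a direction that is likely: the deposited description gives folds of test against control, the sample titles name the mutant first, and the Pro25G control spots changed sign with the dyes, with median ratios of 4.51, -4.54 and 4.58 on replicates 1 to 3. If those spots carry a Cy3-labelled oligonucleotide, the mutant is the numerator. Gtf2i itself had 2 tested probes, A_52_P442585 at -0.47 ± 0.04 and A_51_P499905 at -0.32 ± 0.05 (SD, n = 3), and their place relative to exon 2 is unknown here, so they check the labels only in part. Replicate 3 stood apart in some markers of other cells. The 11 tested probes of 5 of 6 thalamic marker genes averaged -0.04, -0.07 and 0.70 on replicates 1 to 3, and 4 probes of 3 of 4 endothelial genes -0.17, -0.26 and 0.28. Single thalamic genes, by the probe with the smallest p, lay on both sides of 0, with means from -0.27 to 0.94. The highest, Tcf7l2, read 0.46, 0.60 and 1.76 and passed the threshold, with another probe at -0.01. The lowest, Calb2, read -0.33, -0.53 and 0.04 and did not pass. Markers of the striatum averaged -0.28, -0.37 and 0.06 and those of interneurons -0.27, -0.15 and 0.03. Single interneuron genes lay on both sides of 0, with means from -0.57 to 0.35. Oligodendrocyte markers averaged -0.13, -0.18 and 0.004. Astrocyte markers, at -0.19, -0.17 and -0.17, and microglial markers, at -0.10, -0.11 and -0.09, differed little between arrays. Choroid plexus markers read higher on every array, at 0.20, 0.22 and 0.19, with Ttr and Clic6 past the threshold. Summed thalamic signals ran from 8576 to 10635 in the mutant and from 3990 to 9485 in the wild type, where the lowest sum was that of replicate 3, and no tested marker was at 0. All 6 markers of cortical glutamatergic neurons were measured, among them Slc17a7 at a mean signal of 571.6, and averaged -0.27, -0.26 and -0.33. In pooled tissue RNA, fewer cells of a type and less RNA per cell cannot be told apart.

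Signal over background differed widely between the 9 probes and sets how far each ratio can be read. The median of the 314 negative control spots lay between 72.3 and 81.4 on the arrays, and the median gene spot between 204.1 and 206.1. The authors called a channel absent up to 149.99 units, and called it marginal and then present with rising signal. Both channels of Cpeb1, Fxr1, Pum2 and the Fmr1 probe A_51_P378079 were called present on every array. Levels of different probes are not compared, since probes differ in how they bind.

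**Figure D1:**
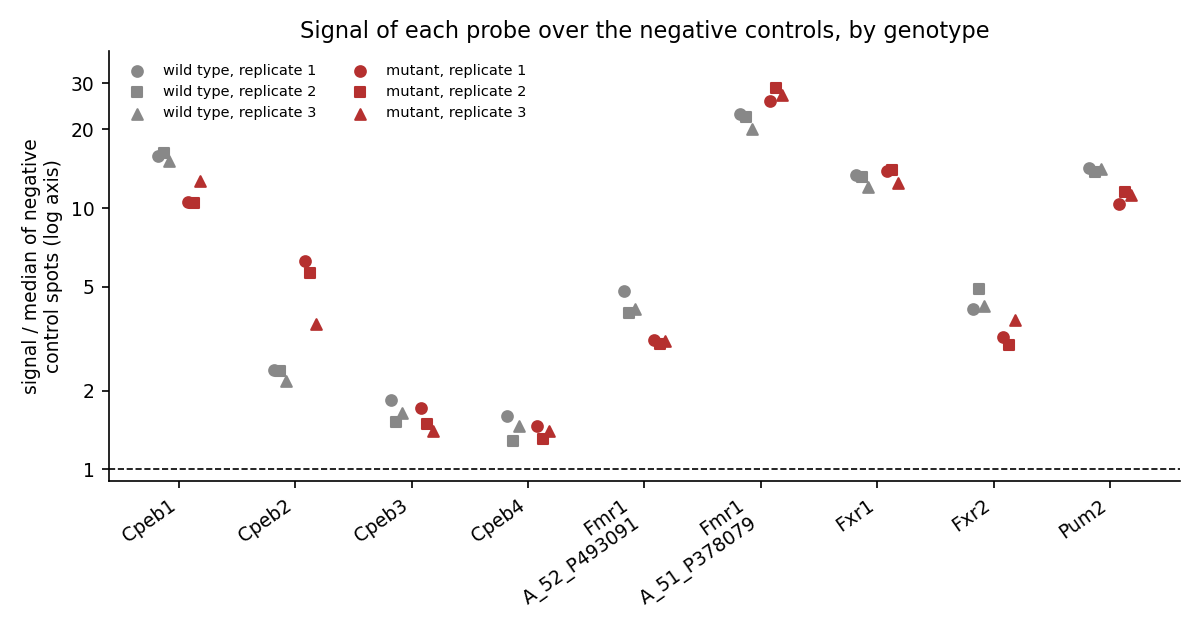
Signal of each of the 9 probes divided by the median of the negative control spots of the same array and genotype (log axis), with wild type in grey, mutant in red and a marker shape for each replicate; the dashed line is the negative control level. The mutant points of Cpeb2 lie above its wild-type points, which sit near 2 times the negative controls, and both genotypes of Cpeb3 and Cpeb4 lie under 2 times that level.

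Cpeb2 read higher in the mutant on every array. Its 1 probe, A_52_P18060, gave mutant signals of 474.9, 445.2 and 292.2 and wild-type signals of 173.4, 194.4 and 169.9 on replicates 1 to 3. The genotypes did not overlap, the wild type lay in a narrow band, and the mutant of replicate 3 was the lowest of its group. The log2 ratios were 1.45, 1.20 and 0.78, a mean of 1.14 ± 0.34 (SD, n = 3) or 2.21-fold. Without replicate 3 the mean was 1.32, and without replicate 1 it was 0.99. CPEB2 is known to repress translation elongation on the mRNAs it binds.

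The size of the Cpeb2 ratio depends on how much background remains in its dim wild-type signal. The wild-type channel was called marginal on all 3 arrays and stood at 2.40, 2.39 and 2.19 times the negative control level, whereas the mutant channel was called present at 6.29, 5.65 and 3.61 times. With 50% of the negative control level subtracted from both channels the mean ratio was 1.34 ± 0.37, and with all of it subtracted it was 1.63 ± 0.40 (SD, n = 3), or 3.09-fold. The direction was the same in each case. The deposited value is therefore the smallest of these estimates, and the fold ran from 2.21 to 3.09 with the background alone. Among the 27530 tested probes 11 had a higher mean ratio as deposited and 8 with the full subtraction.

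In log2 units other members moved less under the same subtraction, but the dim probes moved by a share of their ratio similar to that of Cpeb2. The dim Fmr1 probe A_52_P493091 went from -0.45 to -0.63 and Fxr2 from -0.39 to -0.55. The brighter probes of Cpeb1 (-0.47 to -0.51), Pum2 (-0.32 to -0.35), Fxr1 (0.09 to 0.10) and Fmr1 A_51_P378079 (0.35 to 0.37) hardly changed. No member turned its sign.

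**Figure D2:**
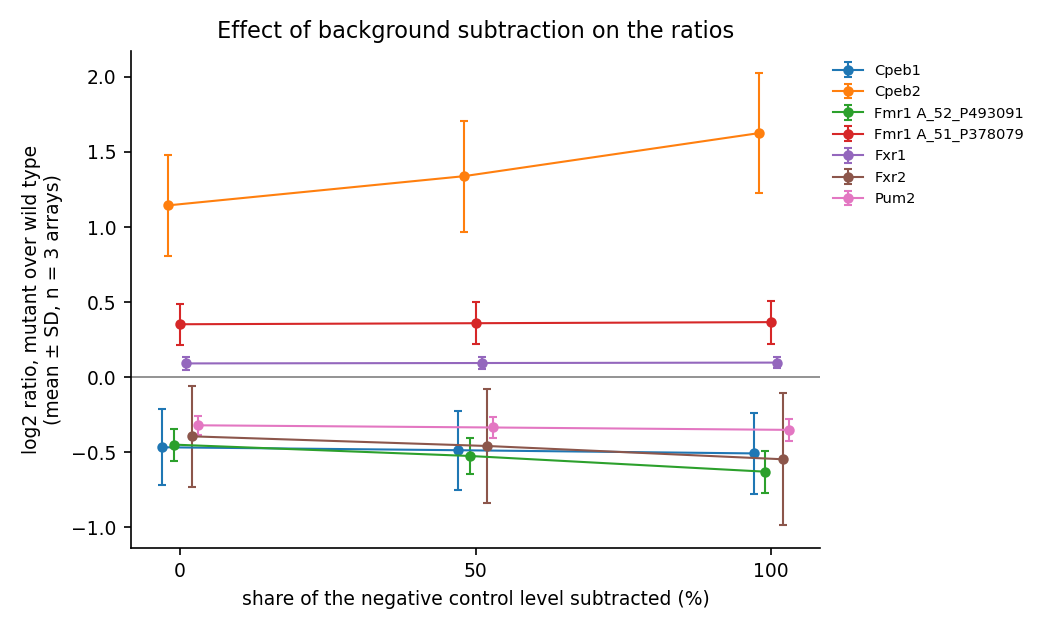
Mean log2 ratio of mutant over wild type (bars: SD over 3 arrays) of the 7 tested probes with 0, 50 or 100% of the negative control level subtracted from both channels; points are offset sideways for legibility. The Cpeb2 line climbs from 1.14 to 1.63, while those of the bright probes stay nearly flat.

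Among tested probes Cpeb2 was dim but not exceptional. Its mean signal over both genotypes was 265.9, and 38.1% of tested probes were dimmer. Of 19 tested probes with a mean ratio of at least 1, 5 were dimmer than Cpeb2. Cpeb2 lay among the 6882 tested probes with a mean signal between 202.3 and 359.5. Across these the median size of the log2 ratio was 0.1 as deposited and 0.142 after subtraction. Across the 6883 dimmest tested probes it was 0.066 and 0.13, and across the 6883 brightest 0.181 and 0.188. The named genes whose 3 ratios were closest to those of Cpeb2 by Euclidean distance over the 3 arrays were Tbx20 (1.44, 1.02 and 0.60; distance 0.255), Vash2 (1.21, 1.10 and 0.95; 0.31) and Wnt3 (1.22, 1.13 and 0.57; 0.323). All 3 are dim as well, with mean signals of 195.3, 243.9 and 234.4.

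Cpeb1 read lower in the mutant, opposite to Cpeb2. CPEB1 is the founding member of the family and regulates cytoplasmic polyadenylation in oocytes and at synapses. Its probe A_52_P462296 gave mutant signals of 796.1, 824.1 and 1029 against wild-type signals of 1146, 1325 and 1173. The genotypes did not overlap, and replicate 3 showed the smallest gap. The log2 ratios were -0.53, -0.69 and -0.19, a mean of -0.47 ± 0.25 (SD, n = 3), or 72.4% of wild type. Without replicate 3 the mean was -0.61. Without replicate 1 or without replicate 2 the ratio was no longer past the threshold.

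Cpeb3 and Cpeb4, which with Cpeb2 form the closer group within the family, could not be compared. CPEB3 is known as a regulator of synaptic glutamate receptor mRNAs, and CPEB4 shares its RNA-binding specificity. The Cpeb3 probe A_52_P432495 had mutant signals of 129.8, 117.2 and 113.5 and wild-type signals of 133.1, 123.1 and 128.0. The Cpeb4 probe A_52_P595824 had mutant signals of 110.6, 102.7 and 113.7 and wild-type signals of 115.3, 104.1 and 113.9. Every one of these 12 values was called absent, and the reliability flag was set on 1 array for Cpeb3 and on 0 for Cpeb4. The values lay above at least 96.8% of the negative control spots, but at no more than 1.84 times the median of those spots. They were thus dim and not well above background, and no fold is given.

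Fmr1 gave 2 answers. The bright probe A_51_P378079 had mutant signals of 1945, 2266 and 2202 against wild-type signals of 1651, 1817 and 1553. Its log2 ratios were 0.24, 0.32 and 0.50, a mean of 0.35 ± 0.14 (SD, n = 3), or 128% of wild type. The dim probe A_52_P493091 had mutant signals of 236.0, 238.5 and 250.5 against wild-type signals of 347.9, 323.7 and 318.4. Its ratios were -0.56, -0.44 and -0.35, a mean of -0.45 ± 0.11 (SD, n = 3), or 73.3% of wild type. On each probe the genotypes did not overlap, but the bright probe read higher in the mutant and the dim one lower.

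The gap between both Fmr1 probes was steadier than either ratio. It was 0.80, 0.76 and 0.85 on replicates 1 to 3, a mean of 0.80 ± 0.05 (SD, n = 3), and 1.00 ± 0.05 with the negative control level subtracted. Both probes carry the accession NM_008031, and where each lies in the transcript is not analysed here. The direction of total Fmr1 mRNA cannot be read from these arrays. Such splits were not rare: of 750 named genes with at least 2 probes past the threshold of a limma adjusted p under 0.05, 198 (26.4%) had probes in opposite directions, and in 24 of these the probes lay farther apart than for Fmr1.

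Fxr1 and Fxr2 read differently from each other and neither passed the threshold. FXR1 and FXR2 resemble FMRP and bind it. The Fxr1 probe A_51_P372463 had mutant signals of 1047, 1104 and 1013 against wild-type signals of 967.5, 1070 and 934.1. The log2 ratios of 0.11, 0.04 and 0.12 averaged 0.09 ± 0.04 (SD, n = 3), and the genotypes overlapped. The Fxr2 probe A_52_P146918 had mutant signals of 242.0, 234.6 and 301.9 against wild-type signals of 297.3, 399.7 and 326.9. Its ratios of -0.30, -0.77 and -0.12 averaged -0.39 ± 0.34 (SD, n = 3), so the spread was nearly as large as the mean, and replicate 2 stood lowest. Without replicate 2 the mean was -0.21, and without replicate 3 it was -0.53 and past the threshold.

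Pum2 read lower in the mutant with little spread. PUM2 represses mRNAs that carry its element and limits dendrite growth and excitability in neurons. Its probe A_51_P228385 had mutant signals of 781.7, 907.8 and 907.3 against wild-type signals of 1025, 1114 and 1097. The genotypes did not overlap. The ratios of -0.39, -0.30 and -0.27 averaged -0.32 ± 0.06 (SD, n = 3), or 80.1% of wild type.

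**Figure D3:**
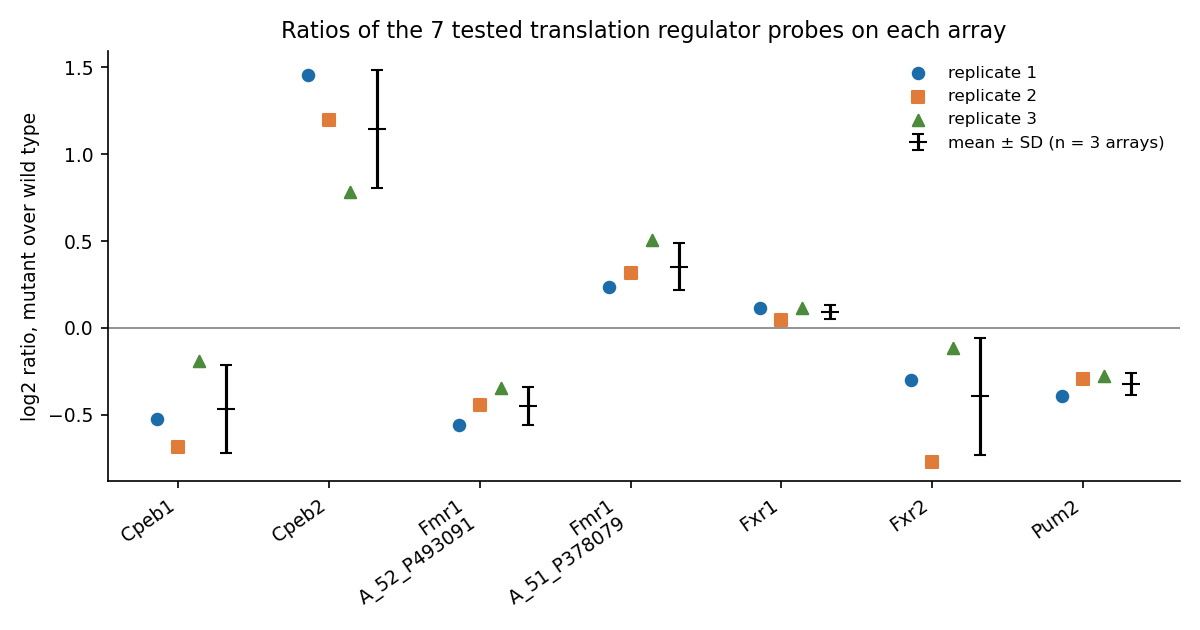
Log2 ratio of mutant over wild type of the 7 tested probes on each of 3 arrays, with the mean and SD in black. Cpeb2 lies between 0.78 and 1.45; Cpeb1, Fxr2, Pum2 and the dim Fmr1 probe lie below 0 on every array, and the bright Fmr1 probe and Fxr1 above it.

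In the limma fit across all tested probes, 5 of the 7 member probes were past an adjusted p of 0.05: Cpeb2 and the bright Fmr1 probe higher, and Cpeb1, Pum2 and the dim Fmr1 probe lower. Over all tested probes 33.9% were past it, 15.0% higher and 18.9% lower. Signals of the genotypes did not overlap for the same 5 members and for 32.2% of all tested probes, and the ratio had one sign on every array for all 7 members and for 65.1% of all tested probes. The authors' rule, a B statistic above 0, called 3 of the 7 and 9.67% of all tested probes. Nothing is read from these counts, as earlier ratios had a part in the choice of genes. Without replicate 1 the count was 3, Cpeb1 and Pum2 no longer past the threshold, and over all probes it went from 9333 to 2409. As deposited and over all 3 arrays, only Cpeb2 combined the threshold with a change of at least 1.5-fold, which 2.01% of all tested probes did. The dim Fmr1 probe also combined both with the negative control level subtracted, at -0.63, and Cpeb1 without replicate 3, at -0.61. The ratios tended to lie closer to 0 on replicate 3 for Cpeb1, Cpeb2, Fxr2, Pum2 and the dim Fmr1 probe, while the bright Fmr1 probe was farthest from 0 there; over all tested probes the median size of the ratio was 0.12, 0.129 and 0.117 on replicates 1 to 3. The order of these sizes was not tested. The part of the thalamic, endothelial, striatal, interneuron and oligodendrocyte markers in the replicate 3 values was not tested.

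Genes that work with these regulators were taken from lists chosen with earlier results known, and a gene counts by its tested probe with the smallest p. Of all 12721 named and tested genes 40.7% passed the threshold, 17.1% higher and 23.6% lower, with a median log2 ratio of -0.02. Over all 27530 tested probes, of which 33.9% passed, the share went with brightness. It was 50.3% of the 6883 brightest probes and 14.1% of the 6883 dimmest. The shares of the lists below were not adjusted for brightness. No p is given for a list as a whole.

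Partners of CPEB and enzymes of the poly(A) tail went both ways. Of 20 genes 17 were tested, 4 rose and 5 fell, and the median was 0.01. Of those tested 52.9% passed, against 40.7% of all named and tested genes. Ddx6, an RNA helicase that keeps mRNAs repressed, fell by 0.51 on the log2 scale (limma adjusted p = 0.00291). Cpsf2, a subunit of the cleavage and polyadenylation complex, had a probe at -0.39 (limma adjusted p = 0.00476) and others at 0.15 and 0.23 that did not pass. Pabpc4, a poly(A)-binding protein, rose by 0.46 ± 0.13 (SD, n = 3). Cpsf4, another subunit of the cleavage complex, had a probe at 0.45 ± 0.16 (SD, n = 3) that passed and another at 0.07 that did not. Tent2, the poly(A) polymerase that CPEB1 recruits, read 0.02 ± 0.05 and did not pass; it was chosen after its value was seen. Without replicate 1, 4 genes of this list passed.

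Partners of FMRP and genes upstream of it went both ways, with 18 of 20 genes tested, of which 3 rose and 7 fell and the median was -0.09. The share past the threshold was 55.6%, against 40.7% of all named and tested genes. Cyfip2, which binds FMRP and belongs to the WAVE complex that controls actin, read -0.77, -0.78 and -0.52 on the 3 arrays (limma adjusted p = 0.00311). Top3b, a topoisomerase that acts on RNA in a complex with FMRP, rose by 0.30 ± 0.02. Eif4ebp2, the main brain inhibitor of the cap-binding protein eIF4E, fell by 0.31 on the log2 scale, and the helicase gene Mov10 read -0.24 ± 0.04 (SD, n = 3). Cyfip1, named here after its values were seen, had probes at -0.23 and 0.21, both past the threshold. Without replicate 1, 0 genes rose and 1 fell, and with array weights 6 rose and 10 fell.

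Partners of Pumilio and the deadenylases passed about as often as named genes at large, 38.9% against 40.7%. Of 21 genes 18 were tested, 2 rose and 5 fell, with a median of -0.09. Cnot4, the ubiquitin ligase linked to the CCR4-NOT deadenylase, had a probe at -0.56 ± 0.04 (SD, n = 3) and others at 0.15 and 0.19, all past the threshold. Of other CCR4-NOT subunits, Cnot3 read -0.28 and passed, and Cnot10 had a probe at -0.28 that passed and another at -0.06 that did not. Btg1, which binds the deadenylases, had a dim probe with a mean signal of 177 at 0.43 that passed and another at 0.18 that did not. Without replicate 1, 1 gene of this list passed, with replicates 1 and 2 averaged as 1, 4 did, and with array weights, 14.

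Other RNA-binding proteins of neurons were mostly lower among those that passed. Of 25 genes 22 were tested, 1 rose and 10 fell, with a median of -0.15. The share past the threshold was 50%, against 40.7% of all named and tested genes. Purb, a protein of dendritic transport granules, fell by 0.43 on the log2 scale, and it has 1 tested probe. The helicase gene Ddx1 had a probe at -0.39 that passed and another at -0.02 that did not, and the cold-shock protein gene Ybx1 had probes at -0.41, -0.22 and -0.19, of which 2 passed. Syncrip, which binds mRNAs in dendrites, passed with its probes on either side of 0, at -0.48 and at 0.25. The mean ratios of the list's probes were -0.13, -0.18 and -0.02 on replicates 1 to 3. Without replicate 1, 5 genes passed.

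Neuronal mRNAs that the literature names as targets of these proteins were lower wherever they passed. Of 18 genes 15 were tested, 0 rose and 11 fell, with a median of -0.20. That is 73.3% past the threshold, against 40.7% of all named and tested genes, of which 23.6% were lower. The 19 tested probes of the list were bright, with median mutant signals of 1416, 1504 and 1481 on replicates 1 to 3. The 6883 brightest of all tested probes have a mean signal over both genotypes above 913.4. The part of brightness in this count was not tested. The amyloid precursor gene App read -0.48, -0.50 and -0.46 on the 3 arrays, a mean of -0.48 ± 0.02 (SD, n = 3; limma adjusted p = 0.00252). The AMPA receptor gene Gria1 had a probe at -0.52 and another at 0.10 that did not pass. Camk2a, the synaptic kinase subunit whose mRNA carries CPEB elements, had probes at -0.44 and -0.19, both of which passed. Camk2a is also one of the glutamatergic neuron markers, of which 4 of 6 genes fell and 0 rose. The list had 10 falls and 0 rises without replicate 3, 4 falls without replicate 1 and 6 with replicates 1 and 2 averaged as 1.

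**Figure D4:**
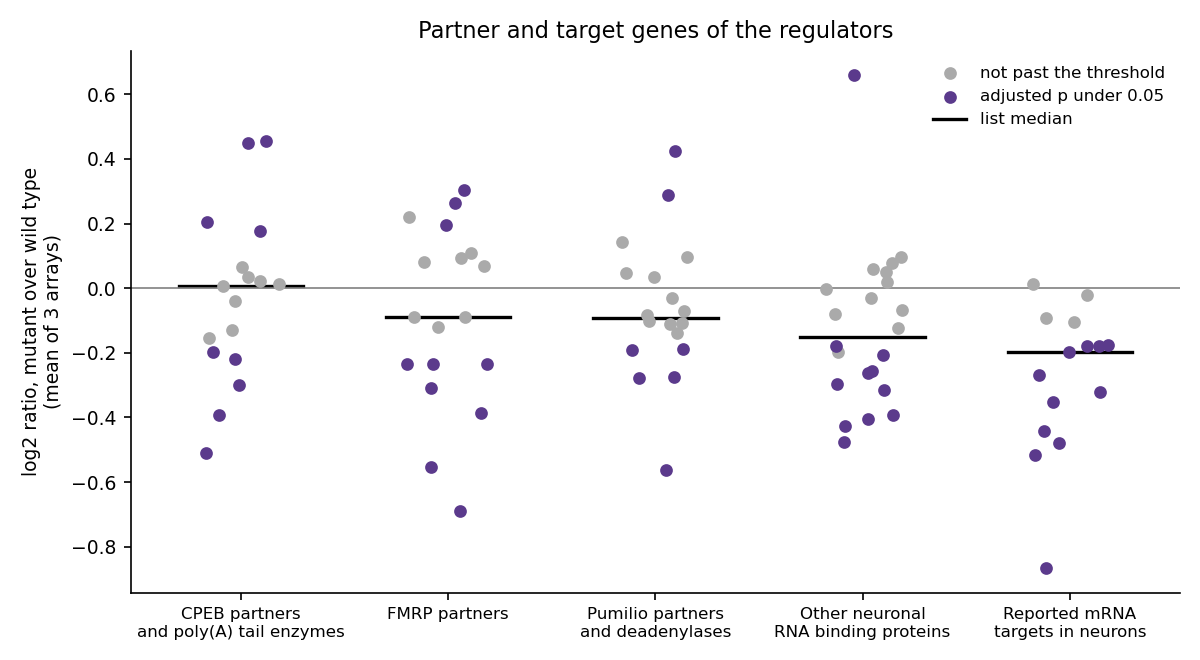
Mean log2 ratio of mutant over wild type of each tested gene in the 5 partner and target lists (its probe with the smallest p); purple points have an adjusted p under 0.05 and black lines are list medians. The median runs from 0.01 for the CPEB partners to -0.20 for the reported mRNA targets, of which no gene rose past the threshold.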

How the data were processed

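Total RNA (500 ng, RNA integrity number of at least 7.0 per the labels) was amplified and hybridised to 60-mer arrays. The deposited intensities were background-subtracted, normalized by an unstated method and dye-swap corrected by the authors, per the deposited readme, which names GenePix; its reliability flag asks for a foreground above 2 times the background. The deposited value table holds a signed fold, a score the authors made from the same ratios. Each of its columns was matched to a sample, but no fit used the signed folds. Deposited log2 ratios, with spots collapsed by the authors, served as an alternative. Deposited intensities were read as other units, as they use decimal commas.

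Spots of a probe were averaged on the log2 scale. Accessions were matched without versions to RefSeq genes of GRCm38.p6, which named 21445 probes (52.1%); sequences are from RefSeq tables of that build. Mean ratios were tested against 0 with limma 3.58.1 in R 4.3.3 (Benjamini-Hochberg, 0.05), tested on simulated data. Subtracted signals were floored at 10. Python 3.11.15, pandas 2.3.3 and matplotlib 3.10.9 made tables and figures. The members and lists were chosen with earlier results of these data known. Named genes were all members, up to 4 genes per list with the smallest p and the 3 nearest to Cpeb2; others are said to be so. Some named genes of the lists are not reported here.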

Additional observations from a re-analysis of the deposited data

How the results depend on the processing

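The direction of each of the 7 tested member ratios was the same under all 15 alternative fits. Cpeb2 ranged from 0.99 to 1.63 and stayed past the threshold in all 15, as did both Fmr1 probes; Pum2 missed it without replicate 1, and Cpeb1 without replicate 1, without replicate 2 and with replicates 1 and 2 averaged as 1. Fxr2 passed in 5 and Fxr1 in 1. Of the 27530 tested probes, 9333 passed; the count was 18617 with array weights, 5120 with replicates 1 and 2 averaged as 1 and 2661 by the authors' rule of B above 0, and ran from 2409 to 9885 when 1 replicate was left out. The count of member probes, 5, was 3 by B above 0 and 1 with at least 1.5-fold required, and ran from 3 to 6 when 1 replicate was left out. The count over the partner and target lists, 48 genes, ran from 15 to 50 when 1 replicate was left out, and was 70 with array weights, 38 with the brightest probe of each gene and 33 with replicates 1 and 2 averaged as 1. Of the counts with 1 replicate left out, those over all probes, members and lists were lowest without replicate 1. Ratios of replicates 2 and 3 correlated least over the tested probes (Pearson r = 0.62, against 0.82 for 1 and 2 and 0.78 for 1 and 3). The cause of the lower counts was not tested. Fits on 2 arrays or with a dye term leave 1 residual degree of freedom. The ratio on each array already pairs a mutant with a wild-type pool, and with 1 group of ratios there is no further replicate block to fit. The dim signal of Cpeb2, Cpeb3 and Cpeb4 limits what the arrays can show for them.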

Other observations

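Apart from Eif4ebp2, the genes named in these observations were chosen after their values were seen. Among the ELAV RNA-binding proteins, Elavl1, the widely expressed member that stabilises mRNAs, had a probe at 0.66 ± 0.20 that passed and another at -0.12 that did not. The neuronal member Elavl2 had a probe at -0.26 ± 0.19 that passed and another at 0.02 that did not, Elavl4 a probe at -0.32 ± 0.21 that passed and another at -0.12 that did not, and Elavl3 read -0.07 ± 0.22 and did not pass (log2 ratio, SD, n = 3). Of the stress granule genes, G3bp2 had probes at -0.55 and -0.62, both past the threshold, while G3bp1 had probes at 0.07 ± 0.15 and at 0.01, and neither passed. Of the double-stranded RNA-binding proteins of dendritic transport, Stau2 had probes at -0.18 and -0.33, both past the threshold, and Stau1 read -0.03 ± 0.02 and did not pass. The differences within these families were not tested.

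At the cap of the mRNA, where FMRP with CYFIP1 is known to hold back initiation, Eif4e had a probe at 0.26 ± 0.15 that passed and another at 0.12 that did not. Eif4ebp1 had probes at 0.11 ± 0.01 and at 0.13, and neither passed. Eif4ebp2 fell by 0.31 on the log2 scale (± is SD, n = 3).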
